A study of Mus musculus with 18 samples.

Results

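The genes described here are 31 genes used as markers of Sertoli cells, taken by symbol from the deposited expression tables of all 18 libraries. All 31 were listed in every library, 1 row each, among 49395 uniquely named genes in the P14 tables and 55184 in the P18 tables. Sertoli cells are the somatic cells that line the seminiferous tubule and carry the germ cells through spermatogenesis. They answer FSH and testosterone, seal the tubule with tight junctions that form the blood-testis barrier, and supply germ cells with growth factors, iron, lactate and retinoids. In the juvenile mouse they stop dividing and mature, which is known to include loss of anti-Mullerian hormone and gain of androgen-dependent genes.

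RNA was measured in Zfp541 knockout (KO, Zfp541-/-) and heterozygous (Het, Zfp541+/-) male mice of strain C57BL/6J. The 6 groups, with 3 libraries each, were spermatocytes isolated from KO and from Het mice at P18 (day 18 after birth), whole testis of KO and of Het mice at P18, and whole testis of KO and of Het mice at P14. Zfp541 encodes a zinc finger protein of male germ cells, and the Het mice carry 1 mutant allele too. No wild type was included. The labels speak of biological replicates without saying whether each is 1 animal, so the p-values measure the spread between these libraries. How spermatocytes were isolated and which part of Zfp541 is deleted are not given in the sources used here.

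Levels are RPKM or FPKM (reads or fragments scaled by gene length and sequencing depth) after rescaling between libraries. Behind them stood 9.256 to 18.31 megareads in spermatocytes, 12.81 to 16.95 megareads in P18 testis and 17.96 to 21.12 megareads in P14 testis. Zfp541 RNA was lower in every KO library than in every Het library of its set: it averaged 13.1 ± 0.97 in KO against 42.2 ± 14.7 in Het spermatocytes, 9.28 ± 0.95 in KO against 23.0 ± 4.3 in Het testis at P18, and 4.40 ± 1.00 in KO against 9.33 ± 1.06 in Het testis at P14 (SD, n = 3 each). The difference passed the test described below in spermatocytes (limma adjusted p = 0.00354) and in P18 testis (0.00541) but not in P14 testis (0.0825). Het replicate 3 of the spermatocytes stood apart from its group, with a chi-square per degree of freedom of 42.1 and 45.9 against the other Het libraries, which differed from each other by 10.9. The summed level of 10 spermatocyte markers was 2620 to 7094 ppm of the summed values in spermatocyte libraries and 1319 to 2983 ppm in P18 testis, while the Sertoli genes below ran the other way. Spermatogonial markers were higher in the spermatocyte libraries too, with 9 of 10 called higher than in testis in each genotype: they averaged 1201 ppm in spermatocytes against 443 ppm in testis in KO, and 708 ppm in spermatocytes against 322 ppm in testis in Het.

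Promoters are shown for a pair of related members that lie on the same chromosome and for members with letters that GATA factors or NR5A1 bind. RefSeq (GRCm38.p6) gave windows of 250 bases before to 50 bases after the start for 21 of the 31 genes. Cst12 and Cst9, which encode cystatin-related proteins, both lie on chromosome 2. Their windows on the plus strand, chr2:148789115-148789414 and chr2:148834897-148835196, begin 45.782 kb apart. In an alignment of the whole windows with gaps allowed, 159 of the 256 bases set opposite a base were identical (62.1%). Other windows were not aligned in this way, so the share does not show that the 2 promoters are related. Capitals mark the letters AGATAA, with its variants TGATAA, further AGATAG and also TGATAG, on either strand, which GATA factors such as GATA4 and GATA1 bind, and AAGGTCA or its variant AAGGCCA, the letters bound by NR5A1.
Cst12: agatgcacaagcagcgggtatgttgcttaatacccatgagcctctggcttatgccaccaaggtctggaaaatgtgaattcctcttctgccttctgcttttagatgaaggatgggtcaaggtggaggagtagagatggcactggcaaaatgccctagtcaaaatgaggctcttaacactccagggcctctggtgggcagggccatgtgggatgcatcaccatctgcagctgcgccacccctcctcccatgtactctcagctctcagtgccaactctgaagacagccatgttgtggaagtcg
Cst9: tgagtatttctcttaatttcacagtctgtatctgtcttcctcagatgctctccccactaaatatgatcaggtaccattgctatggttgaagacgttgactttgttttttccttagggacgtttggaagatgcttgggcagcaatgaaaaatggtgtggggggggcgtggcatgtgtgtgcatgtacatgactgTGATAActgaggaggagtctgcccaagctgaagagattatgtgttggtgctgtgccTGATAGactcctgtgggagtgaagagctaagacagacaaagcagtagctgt
The windows of Amhr2 at chr15:102445117-102445416 and of the X-linked gene Tsx at chrX:103414217-103414516, both on the plus strand, carry such letters as well.
Amhr2: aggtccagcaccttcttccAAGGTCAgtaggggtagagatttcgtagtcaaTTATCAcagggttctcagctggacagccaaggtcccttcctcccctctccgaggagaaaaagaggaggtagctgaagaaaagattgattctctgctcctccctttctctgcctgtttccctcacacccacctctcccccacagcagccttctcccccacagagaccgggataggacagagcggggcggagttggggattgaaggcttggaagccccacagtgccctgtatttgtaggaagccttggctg
Tsx: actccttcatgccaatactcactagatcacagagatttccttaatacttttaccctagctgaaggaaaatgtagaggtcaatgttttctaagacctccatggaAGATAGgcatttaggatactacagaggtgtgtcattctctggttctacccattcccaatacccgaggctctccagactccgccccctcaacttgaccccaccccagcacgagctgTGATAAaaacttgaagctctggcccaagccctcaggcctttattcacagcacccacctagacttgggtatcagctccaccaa
The GATA letters were in the windows of 8 of 21 members (Amhr2, Cst9, Etd, Gdnf, Gja1, Inhbb, Tjp1 and Tsx), against 29.8% of 32851 windows of all genes. The NR5A1 letters were in those of Amhr2 and Etd, against 10.6% of all windows. Neither share shows binding, and a window without the letters says nothing about the factor. Members were counted by gene and all genes by window. Gdnf counted through its window at chr15:7813477-7813776, while its window at chr15:7809798-7810097 held no GATA letters.

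The members spanned a wide range of levels. Mean levels in P18 testis ran from 0.94 (Hsd17b1, a steroid dehydrogenase) to 561 (Clu, clusterin, a secreted chaperone) in KO and from 0.90 to 481 in Het, with the same 2 genes at the ends. Next to Clu stood Aard (489 in KO, 398 in Het), the beta-defensin gene Defb19 (388.8 and 308.5), Cst12 (330.4 and 280.5) and Cst9 (300.3 and 249). The transcription factor genes were lower: Sox9, which drives Sertoli cell fate, had 40.4 in KO and 33.2 in Het, and Gata4 had 20.3 and 16.8. Hsd17b1, Gdnf (1.46 and 1.22) and Ptgds (2.07 and 2.34) stood near the lowest tested levels. Of the 31 genes 6 lie on the X chromosome (Gata1, Rhox5, Rhox8, Tsx, Nr0b1 and Etd).

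**Figure D1:**
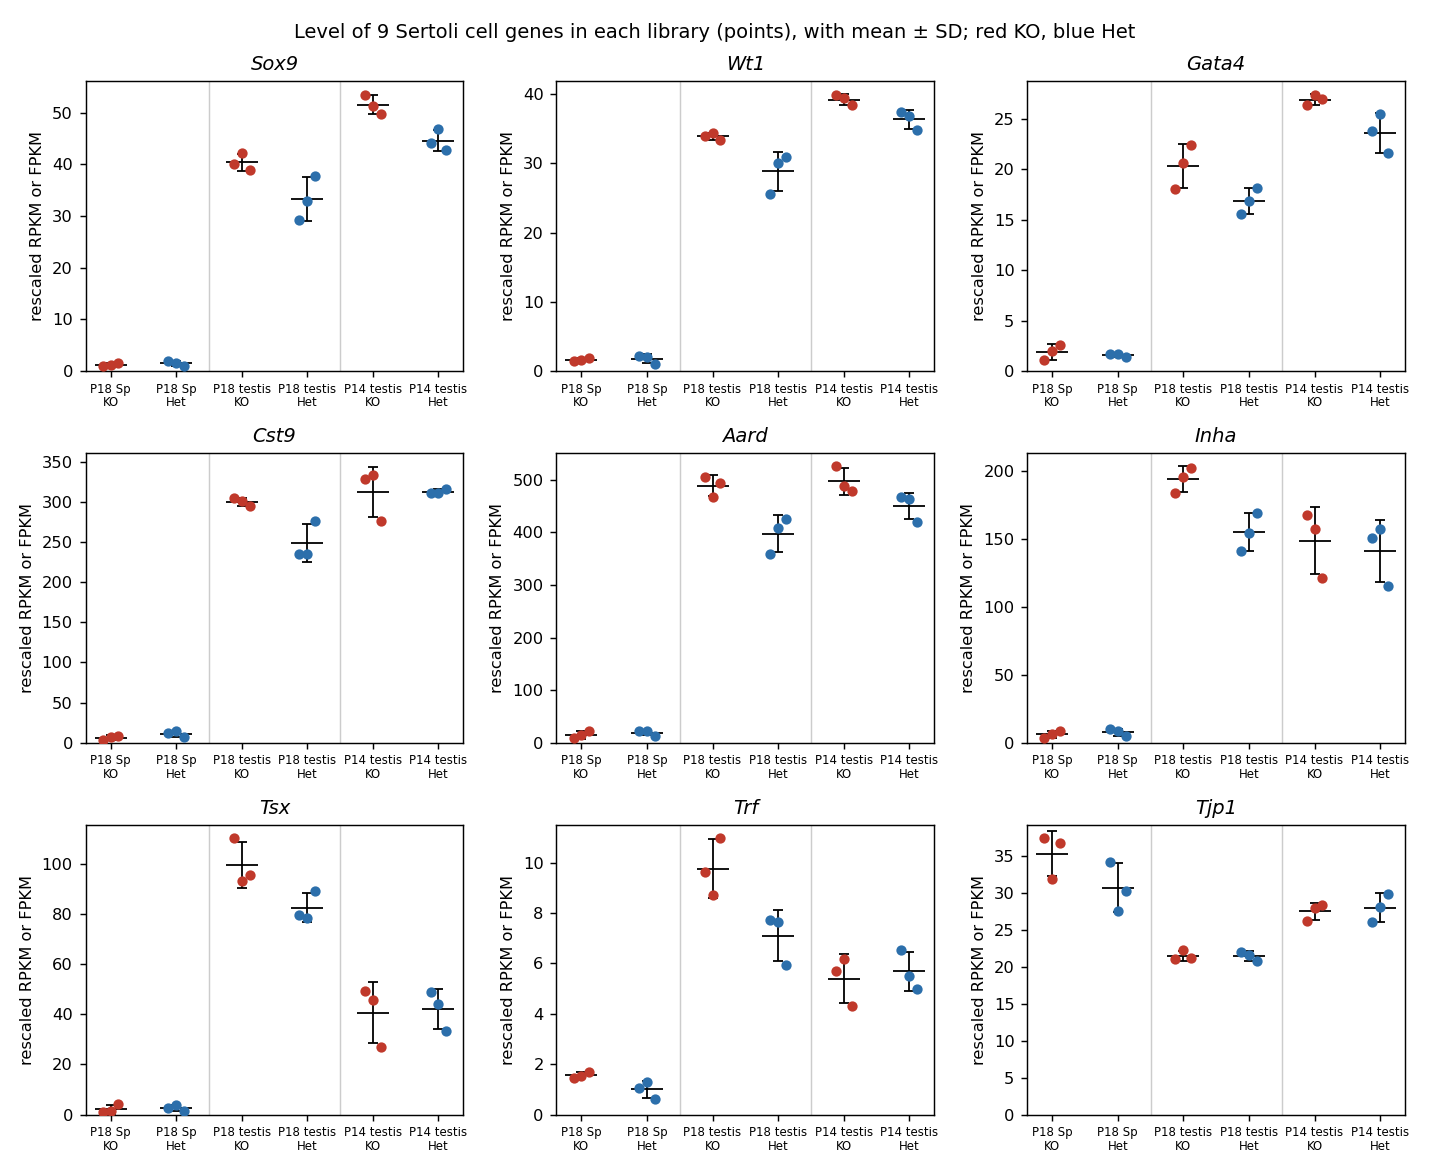
Level (rescaled RPKM or FPKM, linear axes from 0) of 9 members in each library; points are libraries, red KO and blue Het, and bars give mean ± SD (n = 3). Sox9, Wt1 and Gata4 are highest at P14, Tsx and Trf highest in P18 testis, and all but Tjp1 are lowest in spermatocytes (Sp).

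In whole testis at P18 the Sertoli genes lay slightly higher in KO than in Het mice. Of 30 members tested 8 rose and none fell, and 29 of 30 had a positive difference, with a median of 0.26 on the log2 scale. Over all 18262 genes tested the median was 0.01, and 5.68% were called higher and 17.7% lower. The 8 were the hormone gene Inha, the activin and inhibin subunit gene Inhbb, the germ cell ligands Kitl and Dhh, the protease gene Ctsl, and Cst9, Defb19 and Aard. Calls are by limma on log2 of the value plus 0.5, with Benjamini-Hochberg adjustment over all genes and a threshold of 0.05. Levels are relative to the other RNA of a library. In bulk RNA more Sertoli cells, more RNA per Sertoli cell and less RNA from other cells cannot be told apart.

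Among the hormones and ligands, Inha, the subunit shared by the inhibins that restrain FSH, had 183.8, 195.5 and 202 in KO testes against 141, 154 and 169 in Het testes. The groups did not overlap, and Inha rose by 0.33 ± 0.08 (log2, SE; limma adjusted p = 0.0334). Kitl, the ligand of the KIT receptor on spermatogonia, had 19.95, 18.5 and 18.2 in KO testes against 14.8, 15.9 and 16.3 in Het testes, again without overlap (0.26 ± 0.07, limma adjusted p = 0.0334). Dhh, the hedgehog signal to Leydig and peritubular cells, had 18.8, 18.8 and 19.2 in KO testes and 14.8, 16.3 and 16.4 in Het testes (0.25 ± 0.06, limma adjusted p = 0.0297). Inhbb averaged 32.4 ± 0.66 in KO and 27.0 ± 2.4 in Het (SD, n = 3 each; 0.26 ± 0.08 log2, limma adjusted p = 0.0497). For Amh the values were 21.5, 21.02 and 23.2 in KO against 17.2, 20.3 and 19.1 in Het, which did not overlap and did not pass the test (0.22 ± 0.08, limma adjusted p = 0.0925). Its receptor Amhr2 (0.30 ± 0.10) and the FSH receptor Fshr (0.27 ± 0.09) did not pass either.

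Of the secreted and metabolic products, Ctsl, cathepsin L, showed the largest called difference: 110.9, 116.7 and 111.4 in KO testes against 79.5, 90.0 and 95.7 in Het testes (0.36 ± 0.08, limma adjusted p = 0.0243). Defb19 had 407, 372 and 388 in KO testes and 279, 296 and 349.9 in Het testes, a rise of 0.34 ± 0.09 (limma adjusted p = 0.0454). Cst9 had 305, 300.7 and 295 in KO testes against 235.7, 235.7 and 276 in Het testes (0.27 ± 0.08, limma adjusted p = 0.0463), while Cst12 overlapped between groups (0.24 ± 0.11). Aard averaged 489 ± 20.3 in KO and 398 ± 35.1 in Het (0.30 ± 0.08, limma adjusted p = 0.0393). The largest difference of any member was that of Trf, transferrin, which carries iron to germ cells. It had 9.62, 8.70 and 10.995 in KO and 7.74, 7.66 and 5.92 in Het testes, without overlap, and missed the threshold (0.44 ± 0.13, limma adjusted p = 0.057).

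None of the transcription factor genes passed the test, although all were positive: Sox9 (0.28 ± 0.10), Wt1 (0.23 ± 0.08), Gata4 (0.26 ± 0.10), Gata1 (0.16 ± 0.06), Sox8 (0.27 ± 0.11), Nr0b1 (0.23 ± 0.09), Rhox5 (0.34 ± 0.13) and Rhox8 (0.26 ± 0.11). Sox9 had 40.1, 42.2 and 38.9 in KO testes and 29.2, 32.9 and 37.7 in Het testes, and Wt1, a factor needed to keep Sertoli identity, had 33.9, 34.4 and 33.4 in KO and 25.6, 30.0 and 30.9 in Het. Both were without overlap, and in both the Het libraries were spread more widely than the KO libraries. Of the junction genes, Cldn11, the main claudin of the barrier, averaged 186.9 ± 2.9 in KO and 161.5 ± 11.1 in Het (0.21 ± 0.06, limma adjusted p = 0.0576), and Gja1, connexin 43, averaged 18.3 ± 0.49 in KO and 15.6 ± 1.01 in Het (0.22 ± 0.07, limma adjusted p = 0.0539). Tjp1, the scaffold protein ZO-1 of many epithelia, had a difference of 0.00 ± 0.05, with 21.55 ± 0.67 in KO and 21.52 ± 0.63 in Het. Ptgds, a prostaglandin D synthase, was the 1 member with a negative difference (−0.12 ± 0.20).

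In 22 of 30 members every KO library lay above every Het library, against 21.3% of all genes, and in none below, against 27.2%. The members moved together from library to library: Het replicate 3 had the highest Het level for 27 of 31 members and Het replicate 1 the lowest for 21, while no KO library stood out in this way (9 to 12 highest each). The calls rested on the choice of libraries: 2 members were called higher without Het replicate 1, 18 without Het replicate 3, and 0 without Het replicate 2 or without any 1 of the KO replicates. Of all genes 2.48% were called higher without Het replicate 1 and 7.75% without Het replicate 3. The scaling also mattered: 23 members passed with median-of-ratios scaling and 18 on the values as deposited. The share of all genes called higher rose as well, to 16.0% with median-of-ratios scaling and 13.2% as deposited. The median of all genes moved to 0.11 and 0.12 and that of the members to 0.37 and 0.38. As a share of all RNA, the 31 genes together made up 7369, 7098 and 7298 ppm in KO testes against 4969, 5403 and 6328 ppm in Het testes, a ratio of 1.30; without Clu it was 1.31.

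Genes of other cell types moved in the same testes. The 8 macrophage markers summed to 133 to 155 ppm in KO and 84.0 to 100.6 ppm in Het testes, with 4 of 7 tested called higher (median 0.46). The 8 Leydig markers summed to 388 to 505 ppm in KO and 321 to 385 ppm in Het testes, with 1 of 7 called higher (median 0.33). Spermatogonial markers had 3 of 9 called higher (median 0.29), peritubular myoid markers 0 of 6 (median 0.19) and erythroid markers 0 of 5 (median 0.68), and spermatocyte markers had 6 of 10 called lower (median −0.58), with sums of 1319 to 1525 ppm in KO against 2162 to 2983 ppm in Het. No macrophage or Leydig marker was at 0 in a testis library. The part of these cell types in the differences of the Sertoli genes was not tested.

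Further genes of Sertoli function, listed with earlier results known, were also tested. Of 14 tested hormone and transcription factor genes 4 rose and none fell in KO testis at P18 (median 0.29): Cxcl12 (0.47), Thra (0.31), Etv5 (0.31) and Shbg (0.31). Of 16 junction genes Nectin2 (0.27) and Vcl (0.31) rose and none fell. Of 15 genes of nutrient supply 5 rose, among them the monocarboxylate transporter gene Slc16a1 (0.30). The glucose transporter gene Slc2a3 (−3.25) and the lactate dehydrogenase gene Ldha (−2.20) fell. In Het mice at P18 Slc2a3 was higher in spermatocytes than in testis (251 against 94.7), and Ldha averaged 141 in spermatocytes and 74.3 in testis without passing that test.

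At P14 no Sertoli gene passed the test between genotypes. Of 30 members tested 25 had a positive and 5 a negative difference, with a median of 0.09 against 0.02 over all 18064 genes, of which 0.0111% were called higher and 0.188% lower. At an unadjusted p under 0.05, 5 members were higher and none lower, but the share of all genes at that threshold was not counted. With voom on recovered reads the adjusted count was also 0. In 7 of 30 the KO libraries all lay above the Het libraries, against 8.7% of all genes, and in none below, against 7.62%. The clearest was Sox9, with 53.5, 51.4 and 49.8 in KO testes against 44.1, 46.8 and 42.8 in Het testes (0.21 ± 0.05, limma adjusted p = 0.273). Amh had 35.0, 31.5 and 32.9 in KO and 28.1, 31.5 and 24.4 in Het testes, which overlap (0.25 ± 0.10, limma adjusted p = 0.515). Gata4 (0.19 ± 0.07), Dhh (0.20 ± 0.07) and Clu (0.15 ± 0.05) were the others under the unadjusted threshold. Together the 31 genes made up 5643, 5374 and 5253 ppm in KO and 5347, 5094 and 5245 ppm in Het testes, which overlap.

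The genotype difference was not shown to change between the ages. Of the 22 members that could be compared across ages, 20 had a larger difference at P18 than at P14 (median 0.15, all genes 0.00), and none passed the test of that change by limma, against 0.272% of all genes called higher and 6.22% lower. At an unadjusted p under 0.05, 3 were higher (Trf, Cst9 and Defb19) and none lower, again without a count over all genes at that threshold. With voom on recovered reads the adjusted count of members was also 0. The largest change was that of Trf (0.51 ± 0.21, limma adjusted p = 0.192). Without Het replicate 3 of the P18 testes 1 member, Cst9, passed.

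From P14 to P18 the Sertoli genes moved in both directions. Age is confounded with the set of tables here: P14 values were deposited as RPKM and P18 testis values as FPKM, so age and processing cannot be told apart. In KO testis 6 of 22 members were higher and 6 lower at P18 (median −0.03, all 15816 genes 0.01), where 18.2% of all genes were higher and 25.6% lower. In Het testis 2 were higher and 10 lower (median −0.18, all genes 0.02), where 30.1% of all genes were higher and 31.6% lower. On the values as deposited the split was 13 higher and 0 lower in KO and 5 higher and 3 lower in Het. Of all genes 47.58% were then called higher and 13.97% lower in KO, and 39.87% higher and 21.22% lower in Het. The median of all genes was then 0.29 in KO and 0.19 in Het, and that of the members 0.29 and 0.00. In KO every P18 library lay above every P14 library in 8 members, against 26.9% of all genes, and below in 8, against 31.6%. In Het it was 2 above, against 32.7%, and 9 below, against 34.2%. Relative to the shift of the values as deposited, the members again lay below or level with the other genes. The directions given below are those after rescaling.

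After rescaling, the transcription factor genes Sox9, Gata4 and Wt1 were lower at P18 in both genotypes, while Sox8 (−0.04 in KO, −0.18 in Het) and Gata1 (0.09 and 0.00) did not pass. Sox9 had 40.4 ± 1.7 at P18 against 51.6 ± 1.9 at P14 in KO and 33.2 ± 4.3 at P18 against 44.5 ± 2.0 at P14 in Het (SD, n = 3 each), a fall of 0.35 ± 0.08 in KO (log2, SE; limma adjusted p = 0.00568) and of 0.42 ± 0.08 in Het (limma adjusted p = 0.00103). Gata4, which controls Sertoli genes together with its cofactor FOG2, had 17.99, 20.6 and 22.4 at P18 and 26.3, 27.4 and 26.9 at P14 in KO. In Het it had 15.6, 16.9 and 18.1 at P18 and 23.8, 25.5 and 21.5 at P14. The ages did not overlap in either genotype (KO −0.40 ± 0.09, limma adjusted p = 0.00377; Het −0.47 ± 0.09, limma adjusted p = 0.000753). Wt1 fell too (KO −0.21 ± 0.07, Het −0.33 ± 0.07), as did the X-linked testis differentiation gene Etd (KO −0.26 ± 0.08, Het −0.47 ± 0.08), Tjp1 (KO −0.35 ± 0.06, Het −0.37 ± 0.06) and the steroid enzyme gene Hsd17b1 (KO −0.67 ± 0.19, Het −0.50 ± 0.19). All 6 of these calls in KO depended on rescaling: on the values as deposited Sox9 (−0.03), Gata4 (−0.09), Tjp1 (−0.03) and Hsd17b1 (−0.45) did not pass, and Wt1 (0.11) and Etd (0.05) turned positive and did not pass. In Het, Gata4 (−0.29), Tjp1 (−0.19) and Etd (−0.28) still passed on those values, while Sox9 (−0.24), Wt1 (−0.15) and Hsd17b1 (−0.37) did not. The calls of Wt1, Etd and Hsd17b1 in KO and of Hsd17b1 in Het also ended without 1 of several replicates.

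In Het testis alone Cst9 (−0.33 ± 0.08), Cldn11 (−0.25 ± 0.07), Abca1, a cholesterol exporter (−0.36 ± 0.12), and Inhbb (−0.22 ± 0.07) passed as lower at P18; the differences in KO were −0.05, −0.16, −0.16 and −0.05, and none of these changes of the age difference between genotypes passed its own test. The calls of Abca1 and Inhbb ended when 1 of several replicates was left out.

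Other members were higher at P18, 6 in KO and 2 in Het. Tsx, an X-linked gene of testis, had 110.1, 92.9 and 95.4 at P18 against 49.4, 45.7 and 26.8 at P14 in KO. In Het it had 79.6, 78.5 and 89.1 at P18 against 48.8, 44.2 and 33.4 at P14. The ages did not overlap, and Tsx rose by 1.33 ± 0.21 in KO (limma adjusted p = 0.000485) and 0.98 ± 0.21 in Het (limma adjusted p = 0.00216). Ptgds rose by 1.38 ± 0.19 in KO (limma adjusted p = 0.000179) and 1.48 ± 0.19 in Het (limma adjusted p = 6.2e-05) from a low level: it had 2.21, 1.73 and 2.27 at P18 and 0.57, 0.41 and 0.49 at P14 in KO. In Het it had 2.08, 1.78 and 3.16 at P18 and 0.65, 0.52 and 0.34 at P14. The P14 values of Ptgds stood for 10 to 19 reads, whole in all 6 libraries on the annotated length, which is the only evidence that its length was the same at both ages. In KO testis Trf (0.81 ± 0.15), Rhox5, a homeobox gene that answers androgen (0.59 ± 0.18), Inha (0.39 ± 0.14) and Nr0b1, the nuclear receptor DAX1 (0.29 ± 0.07), also passed as higher. In Het testis the same 4 had differences of 0.30 ± 0.15, 0.21 ± 0.18, 0.14 ± 0.14 and 0.14 ± 0.07 and did not pass. The calls of Rhox5 and Inha in KO ended without 1 of several replicates. Genes of other cell types moved with age as well. Spermatogonial markers had 6 of 10 called lower at P18 in KO and 8 of 10 in Het (medians −0.49 and −0.59), spermatocyte markers 4 of 8 called higher in KO and 5 of 8 in Het (medians 0.46 and 0.77), and endothelial markers 2 of 4 called lower in KO and 3 of 4 in Het. The Leydig markers that could be compared had 3 of 5 called higher at P18 in KO and 2 of 5 in Het, and the erythroid markers 3 of 5 in KO and 4 of 5 in Het called lower. Macrophage markers had 3 of 4 called higher in KO and 0 of 4 in Het. Their part was not tested.

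The other 9 members were left out of that comparison because their P14 values were made with another gene length than the P18 values. The length behind the P14 values was read back from the values themselves. For Gja1 it was 3105 bases at P14 and 10257 at P18, for Ctsl 1971 and 6489, for Dhh 2363 and 4399, and for Fshr 2079 and 2360. A longer gene gives a lower value per kilobase for the same reads. The level of Ctsl at P18 was 0.331 of that at P14 in KO and 0.266 in Het, whereas its reads relative to library depth at P18 were 1.09 times those at P14 in KO and 0.876 times in Het. For Gja1 the levels gave 0.215 in KO and 0.190 in Het, and the reads 0.710 in KO and 0.628 in Het. Dhh had 0.5495 and 0.528 by level and 1.02 and 0.984 by reads, and Fshr 0.912 and 0.804 by level and 1.04 and 0.913 by reads. By reads, the P18 to P14 ratio of Ctsl, Gja1 and Dhh was closer to 1 than by level. Reads of the added exons at P18 are part of these counts, and their number was not measured.

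**Figure D2:**
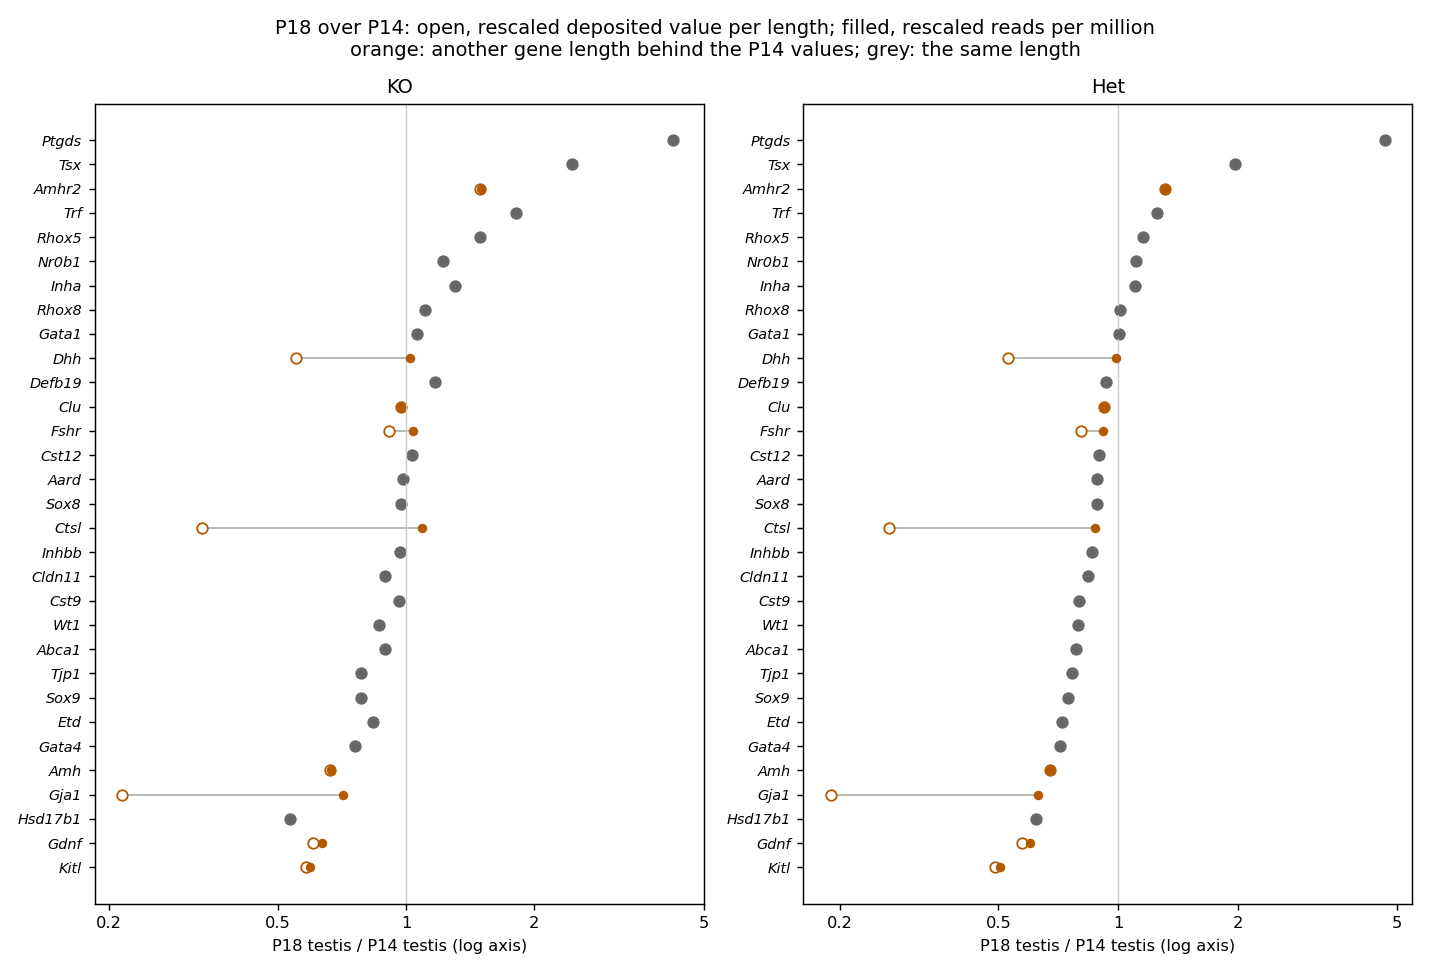
Ratio of P18 to P14 testis (log axis) for all 31 members in KO and in Het; open circles are rescaled values per gene length, filled circles rescaled reads relative to depth, and orange marks the 9 members with another gene length behind the P14 values. The circles fall apart for Ctsl, Gja1, Dhh and Fshr (for Ctsl in KO 0.331 by value and 1.09 by reads) and nearly coincide for the rest.

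In 5 of the 9 the 2 lengths lay within 5% of each other, and in an added comparison with P14 values put on the P18 length these could be tested too. Kitl was lower at P18, by −0.73 ± 0.07 in KO (limma adjusted p = 1.22e-05) and −0.97 ± 0.07 in Het (limma adjusted p = 9.13e-07), the largest fall of any member tested. Amh was also lower (KO −0.58 ± 0.09, limma adjusted p = 0.000478; Het −0.55 ± 0.09, limma adjusted p = 0.000403), as was Gdnf, the niche factor for spermatogonial stem cells (KO −0.52 ± 0.13, Het −0.55 ± 0.13), at levels near 1 to 3. Amhr2 was higher (KO 0.58 ± 0.10, Het 0.39 ± 0.10; limma adjusted p = 0.000793 in KO and 0.00586 in Het). So at P18 the transcripts of AMH and of its receptor had moved in opposite directions in both genotypes. Clu did not pass (KO −0.04 ± 0.07, Het −0.12 ± 0.07). These 5 were tested after rescaling only, and the values as deposited keep the 2 lengths. As deposited, Gdnf in KO had 1.43, 1.96 and 1.64 at P18 and 2.16, 1.95 and 2.56 at P14, which overlap. The deposited values of Gdnf in Het and of Kitl and Amh in both genotypes did not overlap between ages.

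The wider lists were also tested with age, after rescaling only. Among all genes 18.2% were called higher and 25.6% lower at P18 in KO, and 30.1% higher and 31.6% lower in Het. Of 12 hormone and transcription factor genes 8 fell in KO and 10 in Het, and none rose (median −0.38 in KO and −0.53 in Het). Among them were Cxcl12 (−0.53 in KO, −0.97 in Het), Dmrt1 (a level of 53.7 at P18 against 76.7 at P14 in KO and 43.3 at P18 against 67.1 at P14 in Het) and Thra, the thyroid hormone receptor alpha gene (a level of 16.2 at P18 against 26.8 at P14 in KO and 13.0 at P18 against 23.2 at P14 in Het). Of 10 junction genes 2 rose and 4 fell in KO and 2 rose and 7 fell in Het. Cldn3, a claudin that androgen induces (1.08 in KO, 0.86 in Het), and Espn (0.61 in KO, 0.49 in Het) rose, while Ocln, occludin (−0.49 in KO, −0.69 in Het), and F11r (−0.50 in KO, −0.57 in Het) fell. Of 13 genes of nutrient and metabolic supply 2 rose and 2 fell in KO and 3 rose and 8 fell in Het. Apoe rose (0.61 in KO, 0.43 in Het) and Cyp26b1, which degrades retinoic acid, fell (−0.40 in KO, −0.70 in Het). Dmrt1 had 124 in KO and 68.0 in Het spermatocytes, above its level in testis in both genotypes.

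Isolated spermatocytes kept a small residue of Sertoli RNA. Of 30 members tested 29 were lower in spermatocytes than in testis at P18 and 1 was higher, in KO and in Het alike, with medians of −4.25 in KO and −3.78 in Het. Among all 19629 genes 28.6% were higher and 32.5% lower in KO, and 24.3% higher and 32.4% lower in Het. In both genotypes 1 member had every spermatocyte library above every testis library, against 34.1% of all genes in KO and 23.6% in Het, and 29 had them below, against 37.1% in KO and 34.3% in Het. As a percentage of the mean level in testis, the median member stood at 3.79% in KO and 5.06% in Het, and 24 of 31 members were below 10% in each genotype. Spermatocyte values were deposited as RPKM and those of testis as FPKM. Together the 31 genes made up 341, 389 and 598 ppm in KO spermatocytes and 594, 501 and 352 ppm in Het spermatocytes, which is 6.10% and 8.67% of their share in testis (4.72% and 6.42% as a sum of rescaled values). Much of that sum came from Tjp1, Ctsl and Abca1, which are described below: without these 3 genes it was 3.69% in KO and 6.33% in Het.

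The lowest percentages included genes of several kinds. Rhox8 stood at 1.40% of testis in KO and 2.92% in Het, Defb19 at 1.77% and 3.39%, Cst12 at 1.97% and 3.47%, and Tsx at 2.22% and 3.22%. Defb19 had 3.80, 5.97 and 10.8 in KO spermatocytes and 13.9, 10.97 and 6.48 in Het spermatocytes. The difference between spermatocytes and testis was −5.84 ± 0.33 in KO (limma adjusted p = 1.19e-07) and −4.87 ± 0.33 in Het (limma adjusted p = 5.15e-07). Sox9 stood at 3.05% in KO and 4.49% in Het, with 49 to 91 reads per library in KO and 62 to 112 in Het. Etd (3 to 14 reads), Fshr (1 to 9), Hsd17b1 (4 to 7) and Ptgds (1 to 7) rested on few reads, so their percentages are uncertain, the 15.3% of Ptgds in KO and the 32.8% of Hsd17b1 in KO and 35.1% in Het included.

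Several members stayed far above this residue. Tjp1 was the exception in direction: it had 37.5, 31.9 and 36.8 in KO spermatocytes against 21.2, 22.3 and 21.2 in KO testis. In Het it had 34.3, 27.7 and 30.3 in spermatocytes against 22.1, 21.7 and 20.8 in testis. Every spermatocyte library lay above every testis library, and the difference was 0.70 ± 0.09 in KO (limma adjusted p = 5.39e-05) and 0.50 ± 0.09 in Het (limma adjusted p = 0.000788). Abca1 kept 62.6% of its testis level in KO and 51.9% in Het, on 930 to 1689 reads per library. Ctsl kept 18.8% in KO and 18.01% in Het, on 1043 to 2054 reads. Gdnf stood at 34.1% and 38.0% but was low in testis already, with 9 to 46 reads per spermatocyte library, while Trf kept 16.1% and 14.035%, Amh 8.997% and 13.6% and Gata4 9.27% and 9.50%. The cell that held this RNA was not identified.

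**Figure D3:**
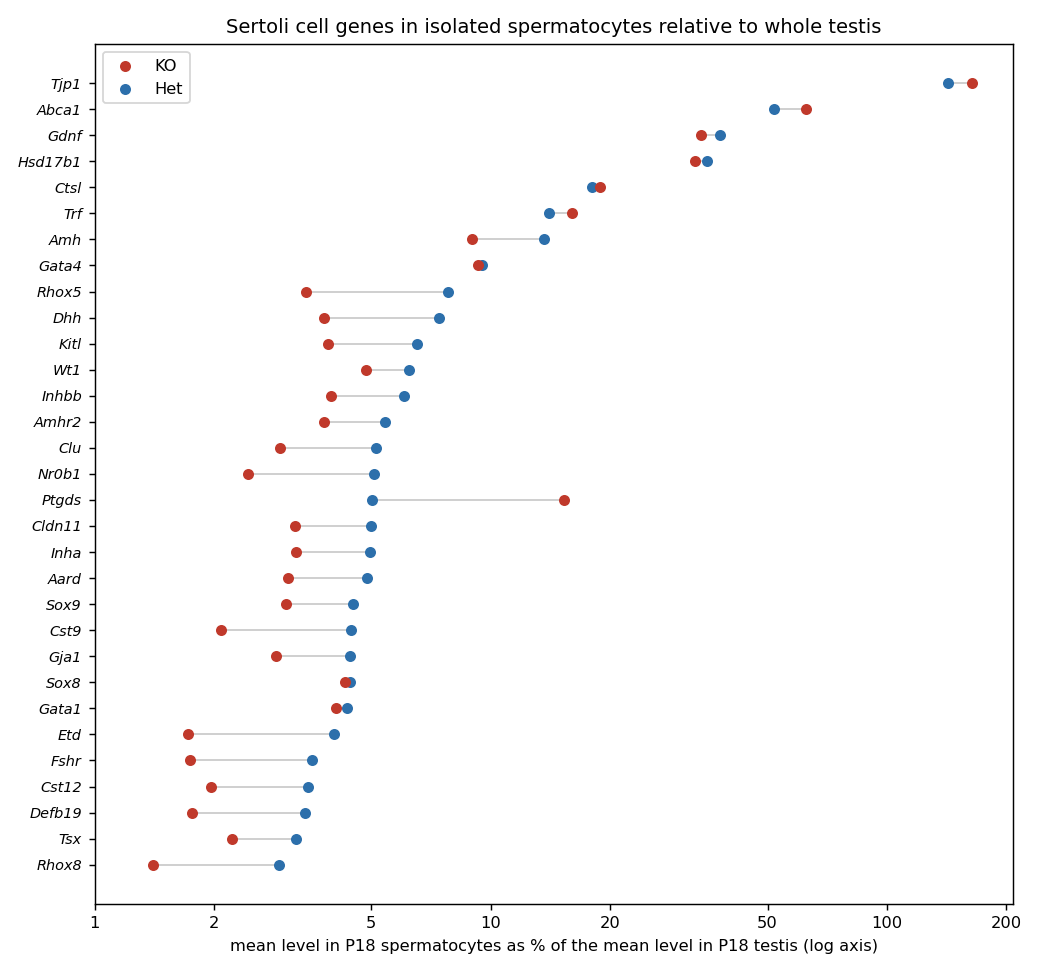
Mean level in P18 spermatocytes as a percentage of the mean level in P18 testis (log axis) for each of the 31 members, red KO and blue Het (3 libraries per mean). Most members lie between 1.40% and 10%, with Tjp1 at 164% in KO and 143% in Het and Abca1 at 62.6% and 51.9%.

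The residue varied as much between libraries of a genotype as between genotypes. The median member stood at 2.40%, 3.45% and 5.10% in the 3 KO libraries and at 6.06%, 5.64% and 3.64% in the 3 Het libraries. KO replicate 3 had the highest KO level for 26 of 31 members, and Het replicate 3, the library that stood apart, the lowest Het level for 26 of 31. Markers of peritubular myoid cells, which lie against the tubule wall, were not depleted: their 6 genes summed to 163 to 640 ppm in KO and 187 to 437 ppm in Het spermatocytes, against 232 to 311 ppm in KO and 199 to 252 ppm in Het testis, with none of 6 called in either genotype. Leydig markers were down, with all 7 tested called lower in both genotypes (medians −4.48 in KO and −4.36 in Het), and macrophage markers had 6 of 7 called lower. Their part in the residue was not tested.

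Between genotypes few Sertoli genes passed the test in spermatocytes, where the libraries of a group were widely spread. Of 24 members tested Ctsl and Abca1 rose in KO and none fell, while 19 had a negative difference (median −0.34, all 15936 genes 0.10), and 18.8% of all genes were higher and 18.1% lower. In 3 members all KO libraries lay above the Het libraries, against 31% of all genes, and in 1 below, against 23.4%. The 7 members below the filter were Gata1, Fshr, Gdnf, Ptgds, Hsd17b1, Sox8 and Gja1. Ctsl had 21.2, 19.4 and 23.3 in KO spermatocytes and 17.7, 15.8 and 14.3 in Het spermatocytes (0.41 ± 0.12, limma adjusted p = 0.0384). Abca1 had 12.1, 10.8 and 12.0 in KO spermatocytes and 9.28, 8.82 and 6.39 in Het spermatocytes (0.50 ± 0.16, limma adjusted p = 0.0412). In both genes the groups did not overlap. Without the filter on low values, with scaling factors from these 6 libraries alone, or without Het replicate 1 or any 1 of the KO replicates, neither passed. Macrophage markers summed to 34.5 to 44.6 ppm in KO and 17.4 to 28.0 ppm in Het spermatocytes, with 2 of 4 called higher and 0 or 1 of 8 at 0 in each library. Spermatogonial markers had 8 of 10 called higher (median 0.71) and summed to 1165 to 1242 ppm in KO and 569 to 817 ppm in Het. Spermatocyte markers had 5 of 10 called lower (median −0.53) and summed to 2620 to 3469 ppm in KO and 3953 to 7094 ppm in Het. The part of these cell types in the rise of Ctsl and Abca1 was not tested.

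The largest negative differences were those of Cst9 (−0.84 ± 0.41), Etd (−0.71 ± 0.32) and Nr0b1 (−0.58 ± 0.20). Nr0b1 had 0.69, 0.75 and 1.10 in KO spermatocytes and 1.63, 1.52 and 1.34 in Het spermatocytes, on 15 to 27 reads in KO and 28 to 42 in Het; the groups did not overlap, and the difference missed the threshold (limma adjusted p = 0.0598). In 1 fit over all 18 libraries, where the testis libraries share in the estimate of the spread, 4 members were called lower, among them Nr0b1, Cst9 and Etd. Set against testis, the genotype difference in spermatocytes was lower for 25 of 30 members (median −0.53, all genes 0.08). None passed the test of that change by limma, against 0.00509% of all genes higher and 0.0713% lower. At an unadjusted p under 0.05, 8 were lower, and the share of all genes at that threshold was not counted. The largest with a small error was that of Nr0b1 (−0.81 ± 0.17, limma adjusted p = 0.0966). It passed, as the 1 member, with scaling factors from those 12 libraries alone, and with voom on recovered reads none did.

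The counting of 5 members can be mixed with that of another gene. In the GENCODE M21 annotation (GRCm38), exons of Ctsl, Dhh and Sox8 share bases with an antisense gene, and exons of Ctsl, Dhh, Trf and Tsx with another gene of the same strand. The overlap covers 63.5% of the exon bases of Trf, 26.8% of those of Ctsl on the other strand and 25.2% of those of Dhh on the other strand. Strand does not separate reads on bases shared within the same strand, as in Trf, and how these were counted is not given. Whether counting used strand is not stated, so reads of antisense partners cannot be told apart either. How reads that match both Cst12 and Cst9 were counted is not given either.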

How the data were processed

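Poly(A) RNA of whole testis and isolated spermatocytes was sequenced from libraries made with NEBNext Ultra II kits, per the labels' protocols. The authors deposited 1 table per library with gene symbols and values: FPKM for P18 testis, RPKM for the other 2 sets, per the file headers. The submitters' processing notes name GRCm38, edgeR 3.28.1, featureCounts, STAR 2.6.1a and CASAVA 1.9, with no order or role. The 31 members, the lists and the tests were chosen with earlier results of these data known.

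Low values multiplied by gene length (merged exons, GENCODE M21) fell on whole multiples of 1 step, within 0.01 of a read, for 93.7% to 94.1% of low values at P14 and 99.0% to 99.2% at P18. The step gave each library's reads. Where the P14 length differed from the annotation, the smallest length giving whole reads in all 6 libraries was used. Values were rescaled once over all 18 libraries by trimmed means of M values (trims 30% and 5%). A gene entered a fit if 3 or more of its libraries reached a value of 1, and fits used limma 3.58.1 (R 4.3.3) on log2 of the value plus 0.5, with trend and robust moderation, two-sided, adjusted by Benjamini-Hochberg within each of 9 comparisons. Log2 differences understate changes of low genes. The fit was tested on simulated data. Summed levels are shares of all summed deposited values.

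Comparisons of ages used genes whose values gave whole reads on 1 length in both sets. Named genes are members called in a comparison or described for their role, Zfp541, and up to 4 called genes of each wider list; some are not reported here. Alternatives were other scalings, pseudocounts and filters, voom on recovered reads, a replicate block, 1 fit over all libraries, and leaving out each library. Added after seeing the data were scaling factors within each comparison, gene lengths within 5% of each other, sums of rescaled values, and sums without Tjp1, Ctsl and Abca1. Same-numbered libraries of KO and Het correlated by 0.08 to 0.10 in P14 testis, −0.03 to 0.02 in P18 testis and 0.05 to 0.23 in spermatocytes. The same number gave the best match for 3 replicate numbers in P14 testis, 3 in spermatocytes and 0 in P18 testis. Libraries were not taken as pairs. Python 3.11.15, pandas 2.3.3, numpy 2.4.6, Biopython 1.88 and matplotlib 3.10.9 were used.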

Additional observations from a re-analysis of the deposited data

How the results depend on the processing

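In P18 testis the count of members higher in KO, 8 in the reported fit, was 23 with median-of-ratios scaling, 18 on values as deposited, 16 with voom on recovered reads, 1 without a filter, 0 scaled to the members' mean and 0 in 1 fit over all 18 libraries. With the replicate number as a block it was 3. Without 1 library it ranged from 0 to 18. Of all genes 5.68% were called higher in the reported fit, 16.0% with median-of-ratios scaling, 13.2% as deposited and 9.74% with voom. That share was 0.851% without a filter, 0.301% scaled to the members' mean, 4.66% in 1 fit over all 18 libraries and 2.24% with the block. The fit over all 18 libraries held only the 22 members with 1 gene length in all sets. Dhh, Ctsl and Kitl were not among them. Scaling to the members' mean centres the members by construction and so says nothing about stability. Under it Wt1 (−0.00669), Amh (−0.0235), Gja1 (−0.0153), Cldn11 (−0.0320) and Tjp1 (−0.24) turned negative. So did Gata1 (−0.0761), Nr0b1 (−0.00727), Cst12 (−0.00797), Clu (−0.0173) and Etd (−0.0199). Without 1 library Ptgds ranged from −0.26 to 0.0758 and Tjp1 from −0.0227 to 0.0199. In spermatocytes the 2 members higher in KO became 1 as deposited and with the block. The count was 0 without a filter, scaled to the members' mean or with scaling factors of those libraries. With voom 1 member was lower, against 19.0% of all genes, and with those scaling factors 1, against 22.2%. In 1 fit over all libraries 4 of 22 were lower, against 18.6% of all genes. Without 1 library, 0 to 1 were higher and 0 to 1 lower. With age, values as deposited gave 5 higher and 3 lower in Het, against 39.87% and 21.22% of all genes. In KO those values gave 13 higher and 0 lower, against 47.58% and 13.97%, with Wt1 (0.11) and Etd (0.0528) reversed. A filter of 3 left 1 higher in Het. The change of the genotype difference with age had 0 to 1 called without 1 library, and that with fraction 1 lower with scaling factors of those libraries. Scaled to the members' mean, spermatocytes against testis had 6 higher in KO, and 5 higher and 19 lower in Het. Of all genes 85.5% were then higher in KO, and 86.2% higher and 2.22% lower in Het. Abca1 (3.13 in KO, 2.40 in Het), Ctsl (1.51 and 0.98), Gdnf (1.29 and 1.15) and Trf (1.15 and 0.49) reversed and were called higher. Ptgds (0.77) reversed and was called higher in KO only. Amh (0.40 and 0.53) and Gata4 (0.39 and 0.0643) reversed without being called. The ratio of summed levels in P18 testis, 1.30, was 1.21 for rescaled values and 1.24 to 1.40 without 1 library; that of spermatocytes to testis in Het, 0.0867, was 0.0642 for rescaled values and 0.0633 without Tjp1, Ctsl and Abca1, and that in KO, 0.0610, was 0.0369 without them. The block changed the count by more than 1.5 times in no other comparison. The cause of these changes was not tested.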
